A study of Homo sapiens with 4 samples.

Results

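The genes described here were POU5F1, which encodes OCT4, and NANOG, in NCCIT cells, a human embryonal carcinoma (hEC) line. They were followed through the probes GI_42560247-A (POU5F1) and GI_13376297-S (NANOG), the 2 probes of 47293 on the array that a gene list of the study paired with these symbols. NCCIT cells were mock-treated (mock) or received esiRNA against OCT4, NANOG or SOX2, and the labels gave harvest at day 2.5. An esiRNA is a pool of short interfering RNAs cut by an endoribonuclease from a long double-stranded RNA. Each of the 4 groups had 3 Illumina BeadChip arrays, described as biological triplicates. All groups were the same line, so the mock cells stand for mock-treated but otherwise unperturbed tumour-derived cells. No group was labelled as receiving a non-targeting esiRNA.

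OCT4 is a POU-domain factor that binds an octamer sequence, often beside a site for the HMG-box factor SOX2, and NANOG is a homeodomain factor. The 3 proteins hold embryonic stem and embryonal carcinoma cells in the undifferentiated state, and they occupy the regulatory regions of their own genes and of each other's. Silencing each with its own esiRNA and reading the transcripts of POU5F1 and NANOG shows how each transcript changes when the other factor is targeted. The factors were not lost singly, however. By the paper's Western blot, OCT4 esiRNA also lowered SOX2 and NANOG protein, and SOX2 esiRNA lowered OCT4 and NANOG protein. SOX2 protein was unaffected by NANOG esiRNA. A fall after OCT4 or SOX2 esiRNA can therefore not be assigned to the targeted factor alone. The arrays measure RNA of the whole culture, in which fewer cells expressing a gene and less RNA per cell cannot be told apart.

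The sequences that define the knock-downs are the primers from which the study made its esiRNAs. They are shown, without the tail added for transcription, because the esiRNA against OCT4 or NANOG degrades the transcript that its own probe reads. A pair of separate pools existed for NANOG, and the labels do not say which of them the arrays used.
OCT4 forward: gagaaggagaagctggagca
OCT4 reverse: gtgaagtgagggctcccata
NANOG 1 forward: aactggccgaagaatagcaa
NANOG 1 reverse: ctcgctgattaggctccaac
NANOG 2 forward: GACTGAGCTGGTTgcctcat
NANOG 2 reverse: tctggaaccaggtcttcacc
SOX2 forward: catcacccacagcaaatgac
SOX2 reverse: ggaaagttgggatcgaacaa
The capitals in the NANOG 2 forward primer mark its first 13 bases, which are the last 13 bases of the NANOG promoter window printed next, so that this pool starts 38 bases into the RefSeq transcript.

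POU5F1 lies on chromosome 6 (31164337 to 31170682) and NANOG on chromosome 12 (7789402 to 7799146) in RefSeq's GRCh38.p14. The NANOG promoter, from 250 bases before to 50 bases after the start, is shown because it carries the letters that OCT4 and SOX2 recognise side by side.
NANOG promoter, chr12:7789152-7789451, plus strand: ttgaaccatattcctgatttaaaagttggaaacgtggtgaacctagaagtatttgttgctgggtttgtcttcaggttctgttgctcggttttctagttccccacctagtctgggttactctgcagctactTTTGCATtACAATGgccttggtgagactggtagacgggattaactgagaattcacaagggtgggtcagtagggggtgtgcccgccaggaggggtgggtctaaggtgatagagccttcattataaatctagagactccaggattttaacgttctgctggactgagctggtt
The capitals mark the octamer core ATGCAAA and the SOX core CATTGT, both on the minus strand, at -120 to -114 and -112 to -107 with 1 base between them. Either strand was searched. The octamer core stood in 1567 of 35116 promoters of the same length (4.46%), the SOX core in 10.78%, and a SOX core within 3 bases before an octamer core, in that orientation, in 4 promoters (0.011%), which were those of NANOG, NRARP, LOC105370047 and LOC124904199. The homeodomain core TAATG was found in the NANOG promoter at -116 to -112, overlapping both marked sites, and at -4 to 1; 23.53% of promoters held it. The SOX2 promoter (chromosome 3, 181711675 to 181711974) held the octamer core at -100 to -94 and no SOX core.

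Between 23.7% and 27.2% of the probes were detected on each array, where detected means a signal above at least 99% of the array's 1517 negative controls. The OCT4 knock-down arrays were brighter throughout, with median negative controls of 110.0 to 118.0 against 92.5 to 99.8 in mock, 98.0 to 103.8 in the NANOG knock-down and 103.5 to 109.6 in the SOX2 knock-down. Signals are therefore read beside the background of their own array. All 10 genes of the list of undifferentiated-cell markers had a named probe, and all 11 of those probes were detected on the 3 mock arrays, POU5F1 and NANOG among them. SOX2 itself has no probe named in the sources used here, so that the label of the SOX2 knock-down was not checked by its own transcript.

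In mock cells POU5F1 was well above background, with signals of 610.5, 546.0 and 536.2. OCT4 esiRNA took the signal to 151.5, 133.0 and 118.5. Only the first of these 3 arrays passed the detection limit, with 8 of the 1517 negative controls brighter than the probe, against 39 and 266 on the others. SOX2 esiRNA gave POU5F1 signals of 127.0, 118.0 and 118.7, none of them detected. NANOG esiRNA left POU5F1 at 533.3, 492.0 and 497.9, detected on every array. The order of the POU5F1 levels was mock, NANOG knock-down, then the OCT4 and SOX2 knock-downs, whose values overlapped. POU5F1 thus checks the label of the OCT4 knock-down against mock and the NANOG knock-down, but not against the SOX2 knock-down.

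NANOG was the dimmer probe in mock cells, at 342.6, 380.7 and 314.2. NANOG esiRNA brought it to 184.2, 165.6 and 162.1, and on each of these arrays 1 negative control was brighter than the probe, so that the transcript stayed detected. In the OCT4 knock-down the NANOG signals were 130.8, 124.2 and 127.6, and none was detected. In the SOX2 knock-down they were 126.5, 118.7 and 105.7, again undetected, with 81, 150 and 618 negative controls brighter than the probe. NANOG thus stood lower in the cells that received OCT4 or SOX2 esiRNA than in those that received its own.

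**Figure D1:**
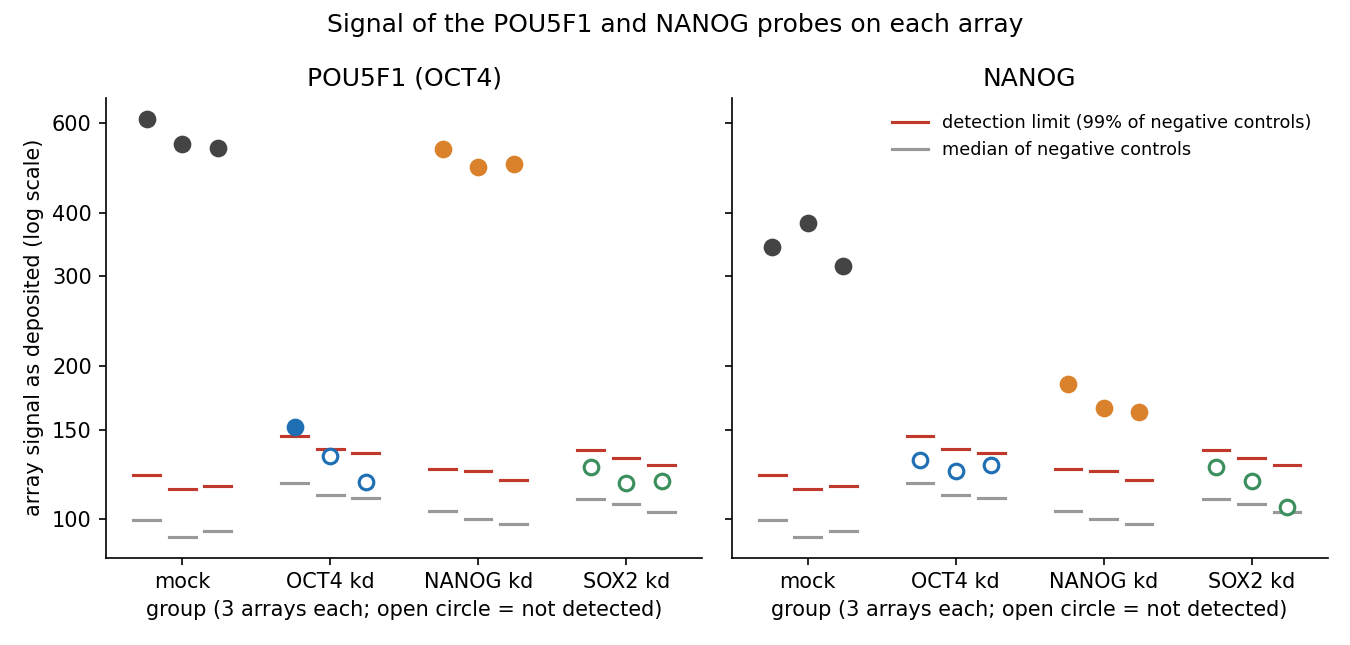
Deposited signal (log axis) of the POU5F1 and NANOG probes on each of the 12 arrays, with each array's median negative control (grey) and detection limit (red). Filled circles are detected. POU5F1 stays detected after NANOG esiRNA, at 74.5% of mock once background-subtracted and scaled, which these unscaled signals do not show. NANOG is undetected on all 6 arrays of the OCT4 and SOX2 knock-downs.

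At these low levels the signals still lay above the middle of the background. After subtraction of the array's median negative control, POU5F1 kept 21.1 ± 12.5 (SD, n = 3) in the OCT4 knock-down and 14.5 ± 3.3 in the SOX2 knock-down, against 468.6 ± 37.0 in mock. NANOG kept 14.3 ± 2.8 and 10.3 ± 7.5, against 250.2 ± 34.9. All 12 of these differences were above 0, the lowest being 2.2 for NANOG in SOX2 knock-down replicate 3. Values under the detection limit have no order among themselves. Where a fitted difference involves a group in which the probe was undetected on every array, the fold bound, where printed, is what the data support. POU5F1 was detected on 1 of 3 OCT4 knock-down arrays, so no bound was computed there, and its fitted differences depend on the correction used.

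Levels relative to mock were read on signals that had the background subtracted and were scaled by rank-invariant probes, as in the study's methods. POU5F1 was 470.1 ± 51.3 in mock and 350.3 ± 20.2 in the NANOG knock-down, or 74.5% of mock. NANOG was 249.3 ± 18.7 in mock and 59.7 ± 3.5 in the NANOG knock-down, or 24.0% of mock. With the methods' floor of 20, at most 4.3% of the POU5F1 signal was left in the SOX2 knock-down, and at most 8.0% of the NANOG signal in the OCT4 and SOX2 knock-downs. The same floor stood above the POU5F1 signal on all 3 OCT4 knock-down arrays (18.4, 13.7 and 5.3). The NANOG knock-down thus left more of its own target than the OCT4 knock-down did.

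The tests were run with limma on normexp-corrected and quantile-normalised log2 signals over 12374 probes, with p-values adjusted over all of them. POU5F1 fell by 2.95 on the log2 scale in the OCT4 knock-down against mock (SE 0.08, 95% interval -3.11 to -2.78, adjusted p = 2.3e-15). Over 11 other settings this difference ran from -4.55 to -2.53, so the interval holds for this setting only. NANOG, in the same comparison, had a log2 difference of -2.27 (SE 0.07, adjusted p = 1.71e-14), and as an undetected transcript it was at least 4.36-fold lower. In that comparison 30.8% of all tested probes were called lower, so that such a call was common. The correction adds an offset to each signal and draws in differences of dim probes, and on the floored scale the bound for NANOG was higher, at least 12.5-fold.

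In the NANOG knock-down, NANOG differed from mock by -1.40 (SE 0.07, 95% interval -1.55 to -1.25, adjusted p = 1.35e-10), the 26th lowest difference. POU5F1 differed by -0.38 (SE 0.08, 95% interval -0.55 to -0.21, adjusted p = 0.00153), or 76.9% of mock on that scale with an interval of 68.4 to 86.4%. The 3 NANOG knock-down arrays did not overlap the 3 mock arrays for POU5F1. The share of all tested probes that separate in this way is not given here, so no weight rests on it. Here 15.9% of tested probes were called lower, and 5.09% had a lower value than POU5F1, so that neither its call nor its size stood out from the array as that of NANOG did. This call was lost under the methods' t-test (adjusted p = 0.0592 over all tested probes) and when the change was required to pass 1.5-fold (limma treat, adjusted p = 1).

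In the SOX2 knock-down, POU5F1 differed from mock by -3.00 (SE 0.08, adjusted p = 1.69e-15), at least 7.05-fold lower, and NANOG by -2.33 (SE 0.07, adjusted p = 1.11e-14), at least 4.2-fold lower. Called lower were 29.8% of tested probes. With the floor of 20 the bounds were at least 23.5-fold for POU5F1 and at least 12.5-fold for NANOG.

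**Figure D2:**
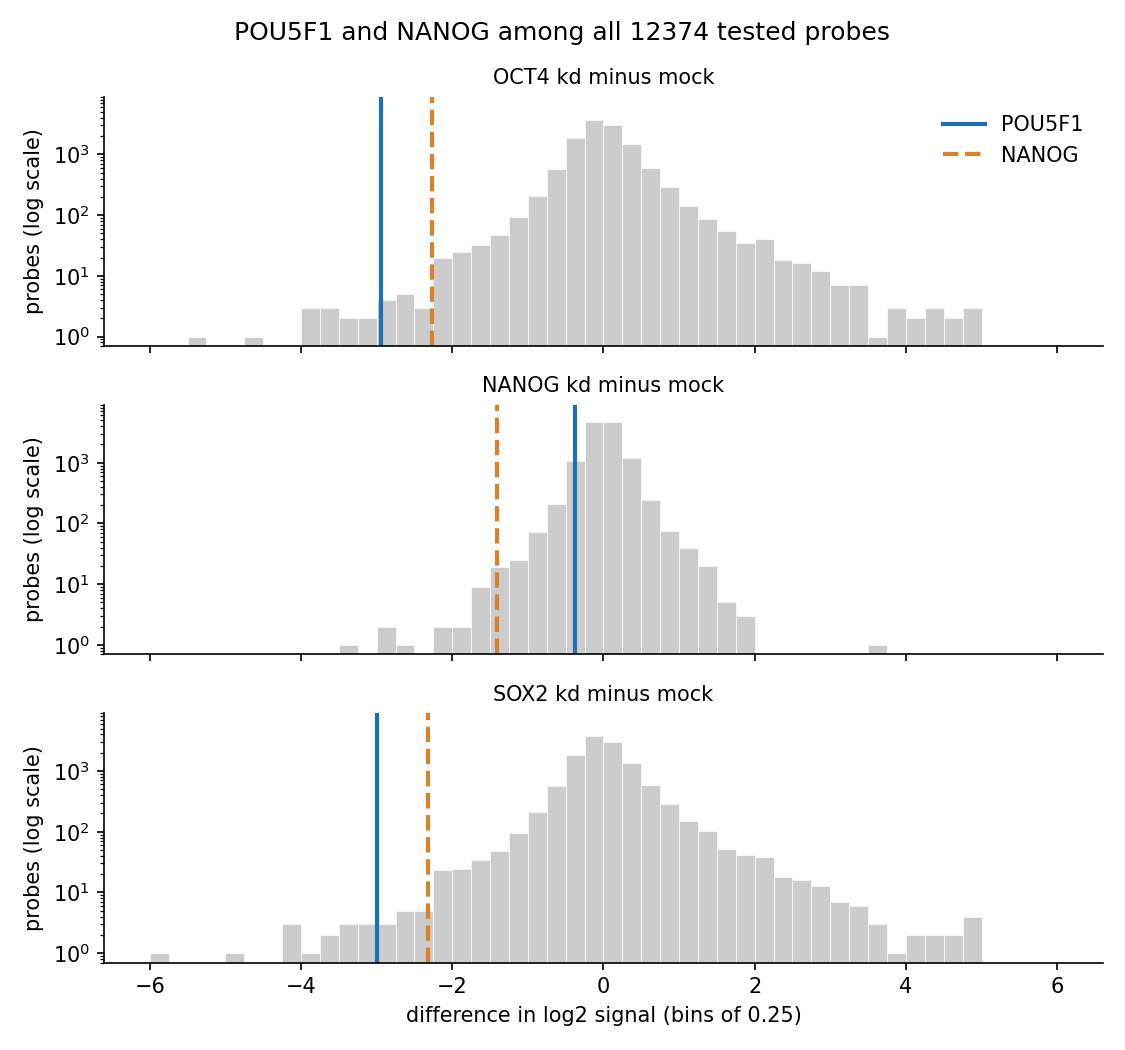
Number of tested probes (log axis) by log2 difference from mock in each knock-down, with POU5F1 (solid line) and NANOG (dashed line) marked. Lines for OCT4 and SOX2 esiRNA are fitted values of probes at or under the detection limit there; after NANOG esiRNA, where both genes were detected, NANOG lies at -1.40 and POU5F1 at -0.38.

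The knock-downs were also compared directly. POU5F1 was lower in the OCT4 than in the NANOG knock-down, with a log2 difference of -2.57 (95% interval -2.73 to -2.40, adjusted p = 2.06e-14). It was also lower in the SOX2 than in the NANOG knock-down, with -2.62 (adjusted p = 1.49e-14), at least 5.42-fold. NANOG was lower in the OCT4 knock-down than in the NANOG knock-down, at -0.86 (95% interval -1.01 to -0.71, adjusted p = 1.47e-08), at least 1.65-fold. It was likewise lower in the SOX2 than in the NANOG knock-down, at -0.92 (95% interval -1.07 to -0.77, adjusted p = 5.61e-09), at least 1.59-fold. In each of these 2 comparisons 28.8% of tested probes were called lower.

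The OCT4 and SOX2 knock-downs were not told apart by either gene. The SOX2 minus OCT4 difference was -0.05 for POU5F1 (95% interval -0.22 to 0.12, adjusted p = 0.915) and -0.06 for NANOG (95% interval -0.21 to 0.09, adjusted p = 0.859). Across the array 0.711% of tested probes were called in this comparison. Both signals were at or under the detection limit in both groups, so a difference there was not measurable, and under median scaling its sign turned, with NANOG called at 0.28 (adjusted p = 0.0227).

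**Figure D3:**
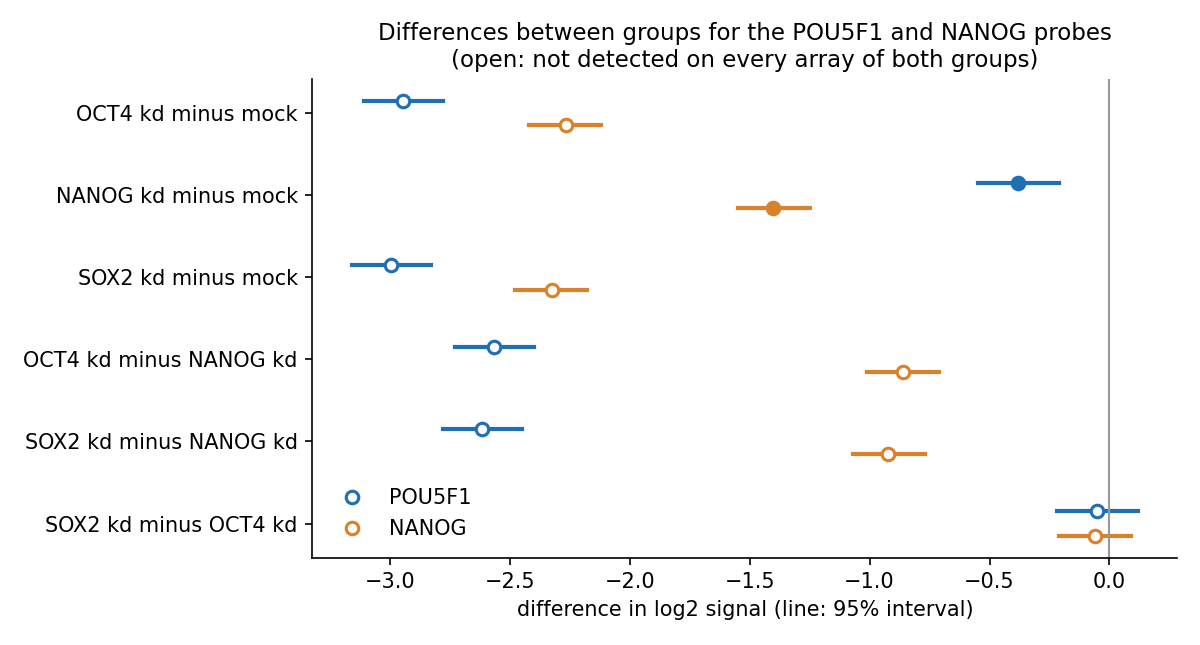
Difference in log2 signal with its 95% interval for POU5F1 and NANOG in the 6 comparisons (open circles: not detected on every array of both groups). The intervals of the SOX2 against OCT4 comparison hold 0, and that of POU5F1 after NANOG esiRNA, -0.55 to -0.21, is the nearest to 0 of the others.

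Set side by side on scaled signals, NANOG had at most 8.0% of its mock signal left when OCT4 was silenced, while POU5F1 had 74.5% left when NANOG was silenced. Before scaling the POU5F1 gap was smaller, with 407.0 ± 19.9 (SD, n = 3) above background in the NANOG knock-down and 468.6 ± 37.0 in mock. The silencing itself was unequal, since OCT4 esiRNA took its own transcript to the detection limit and NANOG esiRNA left 24.0% of NANOG, and what deeper silencing of NANOG would give was not tested. OCT4 esiRNA also lowered SOX2 protein in the paper, so the fall of NANOG there is not assigned to OCT4 alone. All 3 comparisons with mock share the same 3 mock arrays.

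Other genes of the pluripotency network were read from a list of 23, of which 18 had a named probe, 22 probes in all. The names come from the study's own lists of changed genes, so the counts are not independent of change. In the OCT4 knock-down 20 of the 22 probes were lower and 2 higher, the latter both for TBX3, beside 30.8% of all tested probes called lower and 27.3% called higher. In the NANOG knock-down 16 were lower, 3 were higher and 3 were not called, beside 15.9% called lower and 16.4% called higher over all tested probes. Median differences were -1.69 and -0.62, beside -0.02 and 0.00 over all tested probes, and under 6 other scalings 20 were lower in the OCT4 knock-down and 15 or 16 in the NANOG knock-down. In the SOX2 knock-down the counts were again 20 lower and 2 higher, beside 29.8% called lower and 26.3% called higher over all tested probes.

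Several listed genes fell about as far as NANOG after NANOG esiRNA. TERF1, a telomere-binding protein, fell by 1.47 (adjusted p = 6.09e-11) and fell by 1.14 (adjusted p = 2.2e-09) on the log2 scale on its 2 probes. ZSCAN10, a zinc-finger factor of embryonic stem cells, fell by 1.43 (adjusted p = 2.14e-10), and GDF3, a TGF-beta family ligand, fell by 1.30 (adjusted p = 4.19e-10). The homeobox gene HESX1 fell by 1.27 (adjusted p = 3.75e-08) and the Polycomb gene PHC1 fell by 1.26 (adjusted p = 4.4e-10). HESX1 was detected on only 1 of the 3 NANOG knock-down arrays, and its difference ran from -2.36 to -1.03 over the scalings. POU5F1 at -0.38 lay beside TDGF1, a Nodal co-receptor, at -0.41, and the reprogramming factor KLF4 at -0.27.

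Another set was not called lower after NANOG esiRNA. SALL4 (-0.01) and LIN28A (0.13) did not pass the test there, although each was lower in the OCT4 knock-down, at -0.62 and -0.63. The homeobox gene OTX2 rose by 1.09 (adjusted p = 1.29e-08) and STAT3, a transducer of cytokine signals, by 0.53 (adjusted p = 1.97e-05), while both were lower in the OCT4 knock-down, OTX2 at -0.95 and STAT3 at -0.63. The difference between the 2 knock-downs was -2.05 for OTX2 (adjusted p = 4.24e-13) and -1.16 for STAT3 (adjusted p = 2.44e-10). The third probe called higher was one for TBX3 at 0.24, a gene detected on no mock and no NANOG knock-down array, and its direction was not kept under every scaling.

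**Figure D4:**
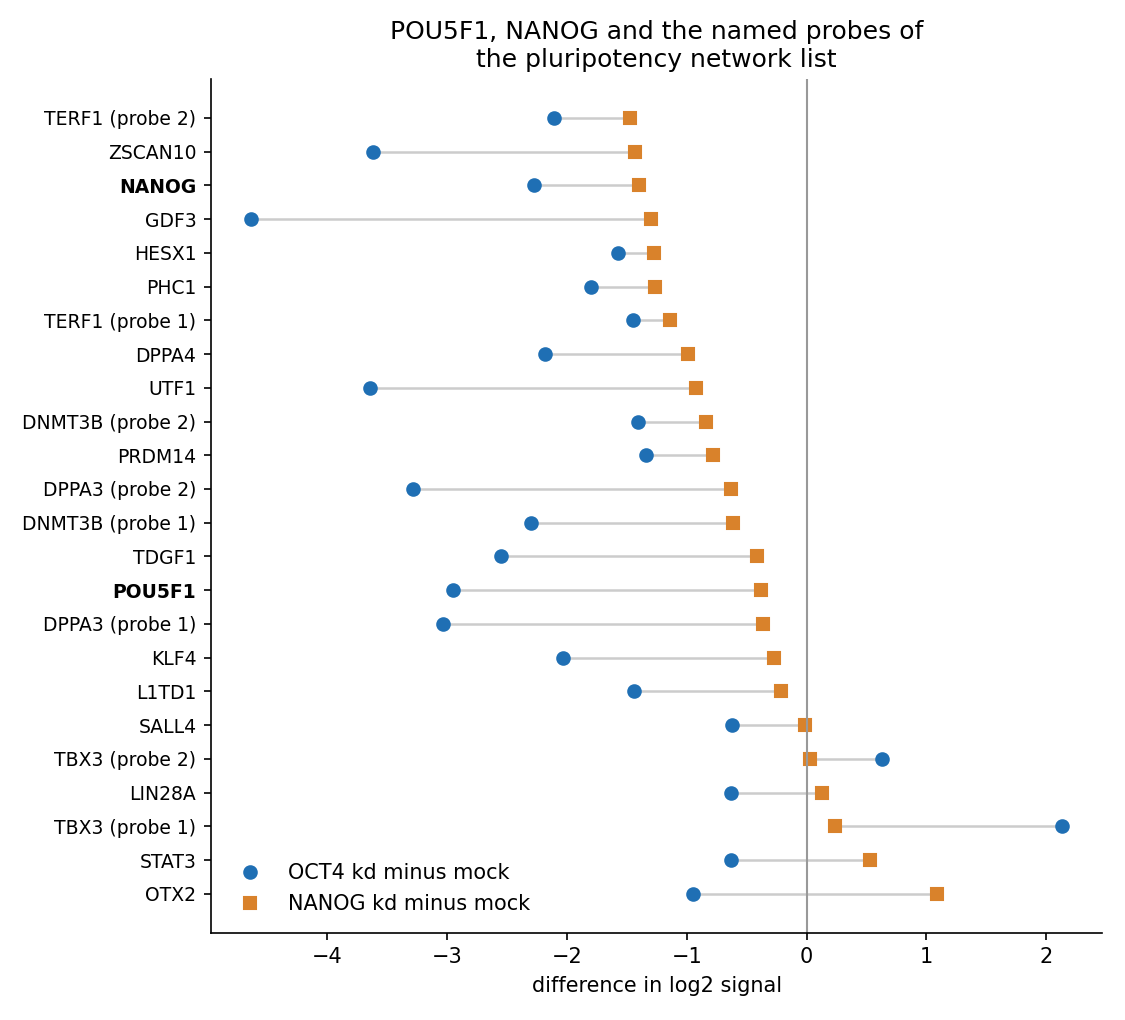
Log2 difference from mock after OCT4 esiRNA (circles) and NANOG esiRNA (squares) for POU5F1, NANOG (bold) and the 22 named probes of the pluripotency network list, ordered by the NANOG knock-down. POU5F1 lies at -2.95 and -0.38 and NANOG at -2.27 and -1.40, where the OCT4 knock-down values are cut short by the detection limit, since NANOG was undetected there and POU5F1 detected on 1 of 3 arrays.

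Among known activators of POU5F1 or NANOG, 5 of the 10 listed had a named probe. PRDM14, which binds near POU5F1, was lower in the NANOG knock-down, at -0.78 (adjusted p = 1.76e-07), detected there on 2 of 3 arrays, and undetected in the OCT4 and SOX2 knock-downs. KLF4, SALL4 and STAT3 are given with the network. SMAD3, which carries Activin and Nodal signals, was higher in the OCT4 knock-down by 0.80 (adjusted p = 1e-08) and in the NANOG knock-down by 0.21 (adjusted p = 0.0221). Of the 8 listed repressors only TCF7L1, a Wnt-pathway factor that represses pluripotency genes, had a named probe, and it was lower in the OCT4 knock-down, at -0.78 (adjusted p = 8.16e-09), and in the NANOG knock-down, at -0.25 (adjusted p = 0.0057).

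Mesoderm was the one other cell type whose marker list had more than 1 named probe. All 8 of its named probes were higher in the OCT4 and in the SOX2 knock-down, beside 27.3% and 26.3% of all tested probes called higher, while 1, for the heart and extraembryonic mesoderm factor HAND1, was called higher in the NANOG knock-down at 1.78 (adjusted p = 3.2e-11), beside 3.09 in the OCT4 knock-down. The other 7 did not pass the test there, and under median scaling and cyclic loess 1 of them was called lower, and with a normexp offset of 16 another 1 was called higher. The summed scaled signal of all 8, HAND1 included, ran from 529.7 to 558.9 in mock, 5551.5 to 5618.6 in the OCT4 knock-down, 4710.0 to 5111.1 in the SOX2 knock-down and 1615.8 to 1993.1 in the NANOG knock-down. RUNX1, COL1A1, MSX1 and ACTC1 were detected on no mock array and ACTA2 on 1, so these entered the test through the groups in which they are high, and all 8 have names because the study listed them as changed. The 11 undifferentiated-marker probes, POU5F1 and NANOG included, summed to between 37391.8 and 38327.6 in mock, 9210.1 and 10024.2 in the OCT4 knock-down, 8614.3 and 9210.5 in the SOX2 knock-down and 27549.0 and 28171.2 in the NANOG knock-down. The ectoderm list had 1 named probe, for the intermediate filament gene NES, higher by 1.89 in the OCT4 and 0.89 in the NANOG knock-down. No gene of the trophoblast and endoderm lists had a named probe. The part of changed cell identity in the levels of POU5F1 and NANOG was not tested.

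The position of NANOG on chromosome 12 puts it near other genes of the same kind. Its 2 nearest neighbours with a named probe on the side of lower coordinates were DPPA3 (71.8 kb), a germ-cell and pluripotency gene, and GDF3 (93.6 kb). DPPA3 differed from mock by -3.28 in the OCT4 knock-down and -0.63 in the NANOG knock-down on that probe. Its other probe gave -3.03 and -0.36, and there the NANOG knock-down call was made under 5 of 7 scalings. GDF3 differed by -4.63 and -1.30. Beyond these 2 genes EMG1 (792.0 kb) differed by -0.55 and -0.32, ATN1 (847.1 kb) by 0.36 and 0.38, and ENO2 (865.7 kb) by -0.85 and 0.00. Only genes that the study listed as changed have names here. Between NANOG and DPPA3 lie 2 protein-coding genes, and between NANOG and EMG1 14, so no trend with distance can be read. On the other side FOXJ2 (233.6 kb) was higher, by 0.71 and 0.19, and PHC1 (1114.7 kb) lower, at -1.80 and -1.26. Around POU5F1 the nearest named neighbours were farther, DDR1 at 264.2 kb and MICA at 230.0 kb, and both were higher in the OCT4 knock-down, by 1.01 and 0.92, with IER3 (419.8 kb) higher there by 2.65 and lower in the NANOG knock-down, at -1.18. The lowest of the 10 neighbours of POU5F1 in the OCT4 knock-down was HLA-DQB1 (1488.8 kb) at -1.23, undetected there and so cut short by the detection limit. None fell as far as POU5F1, the esiRNA's own target, below which only 0.11% of all tested probes lay.

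Finally, the probes most like each gene over the 12 arrays were found by Pearson correlation of log2 signal, which is carried here mostly by the 4 groups. POU5F1 and NANOG correlated at r = 0.89, and 1330 of the 10552 probes detected on all mock arrays were closer to POU5F1 than NANOG was. Named probes closest to POU5F1 (r from 0.995 to 0.997) were those of NLGN4X, TNFRSF8, RPRM, PPP2R2B, LRRC47, IMP3, SOX8, RARRES2 and KLF4. Each was lower in the OCT4 knock-down, from -0.61 for LRRC47 to -2.18 for RPRM, with NANOG knock-down differences between -0.09 and -0.29. This pattern follows from how the probes were picked, and 30.8% of all tested probes were called lower in the OCT4 knock-down. TNFRSF8 encodes CD30, a surface marker of embryonal carcinoma.
The 10 closest to NANOG (r from 0.991 to 0.995) were CTH, ASNS, a probe listed without a gene symbol, LOC375662, NSMAF, CDX4, LOC400961, TERF1, ENPP1 and TAFA4. Their NANOG knock-down differences ran from -0.48 for CDX4 to -2.75 for the probe without a symbol, with -3.88 in the OCT4 knock-down. These falls too follow from the choice by likeness. ASNS makes asparagine and CTH makes cysteine, and they differed by -1.17 and -1.06 in the NANOG knock-down. No gene named here stood in both groups.
Of 8 genes closest to POU5F1 with a promoter in the table, 1 (NLGN4X) held the octamer core, as did 1 of 5 closest to NANOG (CDX4). Over all promoters 4.46% held it, and these sets are too small to compare with that share. None held the paired sites seen in the NANOG promoter, but only 0.011% of all promoters did, so that finding none tells nothing.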

How the data were processed

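Biotin-labelled cRNA of the 12 cultures was hybridised by the authors to Illumina BeadChips, stained with Cy3-streptavidin and read with BeadStudio 1.0. The deposited array files hold 1 intensity per probe without background subtraction or normalisation, its spread over beads, and a detection score, the fraction of negative controls below the probe. The deposited table of group means, intensities that the authors background-subtracted and scaled by rank-invariant probes, was used as an alternative only. The build behind the array files is not given in the sources used here; positions and the promoter are RefSeq's.

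Intensities were normexp-corrected (offset 50), quantile-normalised and tested with limma 3.58.1 in R 4.3.3, all 4 groups in 1 fit, over the 12374 probes detected at 0.99 on all arrays of at least 1 group, 4 control probes left out. Benjamini-Hochberg values below 0.05 were called. The script was tested on simulated data. For an undetected probe, at least N-fold compares the brighter group's mean with the signal at detection 0.99 on each array, or the probe's own if higher. Array number limits the precision.

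Gene names exist here for 2985 probes, those of the study's lists of changed genes, 2481 of them matched in RefSeq, and list counts cover these alone. Those lists' fold changes and p-values were not used. Probe sequences were not analysed here, so signal from near-identical copies of both genes was not examined. POU5F1 has no promoter in the table used. Named were list members with a probe, the 5 nearest named genes on each side, and the 10 named probes most like each gene. Some items that these rules name are not reported here. The genes and lists were chosen with earlier results of these data known. The labels give day 2.5 and the methods days 2 and 4. Same-numbered arrays of different groups did not deviate together as a rule (median r = -0.042 over 18 pairs), so they were not treated as pairs. Single pairs ran from -0.399 to 0.416, the highest being the OCT4 and NANOG knock-down arrays of the first replicate. Arrays of different numbers spread as widely (median r = 0.049 over 36 pairs, from -0.418 to 0.405). A block by replicate number cannot take up deviations shared across numbers, and their source was not tested. Alternatives changed the background correction, scaling, filter, test, arrays and samples in the fit.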

Additional observations from a re-analysis of the deposited data

How the results depend on the processing

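Every difference of POU5F1 and NANOG from mock, and from the NANOG knock-down, kept its direction under 11 other settings and without each array, and kept its call except POU5F1 in the NANOG knock-down. That difference (-0.38) missed the threshold under the methods' t-test (adjusted p = 0.0592) and with a required change of 1.5-fold (limma treat, adjusted p = 1). Over the other settings it ran from -0.42 to -0.36, and without each array from -0.44 to -0.32 (highest adjusted p 0.00961). The sizes of the deep differences depended on the setting. In the OCT4 knock-down POU5F1 ran from -4.55 to -2.53 and NANOG from -3.64 to -1.88, and in the SOX2 knock-down from -4.55 to -2.57 and from -3.64 to -1.93. NANOG ran from -2.06 to -1.23 in the NANOG knock-down, from -1.68 to -0.66 between the OCT4 and NANOG knock-downs and from -1.77 to -0.70 between the SOX2 and NANOG knock-downs. The authors' means gave -0.45 for POU5F1 and -2.09 for NANOG in the NANOG knock-down. The neqc alternative was chosen after seeing the data.

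The SOX2 minus OCT4 difference turned positive under median scaling (POU5F1 0.26, NANOG 0.28) and cyclic loess (0.20 and 0.14). Without single arrays it ran from -0.125 to 0.0128 for POU5F1, positive without OCT4 knock-down replicate 1, and from -0.113 to 0.00982 for NANOG, positive without SOX2 knock-down replicate 3. The 88 probes called there became 39 with offset 16, 28 with the methods' scaling and floor, 28 in a fit of the 2 groups, 1128 with median scaling, 160 with cyclic loess, 1 with the methods' t-test, 1 with limma treat and 0 with neqc. Without single arrays they ran from 2 to 89, with 14 and 57 without OCT4 knock-down replicates 1 and 3, and 2 and 13 without SOX2 knock-down replicates 1 and 2. With the replicate number as a block they were 58, and no call of POU5F1 or NANOG changed.

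With limma treat the called probes were 1009, 173 and 1027 for the OCT4, NANOG and SOX2 knock-downs against mock (7198, 4001 and 6951 without it), and 828 and 880 for the OCT4 and SOX2 against the NANOG knock-down (6575 and 6530 without it). The methods' t-test called 1750 for the NANOG knock-down at adjusted p below 0.05 with no fold limit, and at the methods' threshold (unadjusted p below 0.01 and a change of 1.5-fold) 218 probes were lower and 256 higher there. Why these counts differ was not tested. Median scaling took the median of all probes in the OCT4 knock-down to -0.16. Neither gene was detected on all 12 arrays, so that filter gave no value for them, and no chip was named that could serve as a block.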
